A study of Mus musculus with 6 samples.

Results

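Cajal-Retzius cells were picked out of single-nucleus RNA profiles of the mouse hippocampus by their raw counts of unique molecular identifiers (UMIs). A nucleus counted as a member when it held at least 5 UMIs of Reln, at least 2 UMIs in the sum of Trp73, Lhx1, Lhx5, Ebf3 and Nhlh2, and at most 1 UMI in the sum of Gad1 and Gad2. Nuclei had to pass 500 detected genes and to hold at most 5% mitochondrial UMIs. The rule found 246 members among 27766 nuclei that passed these limits (0.886%), out of 30323 barcodes in the files. The members were chosen by the measured UMIs of these 8 genes, so their levels are given as a description without a test.

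Cajal-Retzius cells are early-born glutamatergic neurons of the marginal zone that secrete reelin, the large extracellular protein encoded by Reln. Reelin binds the receptors Vldlr and Lrp8 on neighbouring neurons, and the bound receptors pass the signal through the adaptor Dab1 and Src-family kinases. Most of these cells die after birth, and the hippocampus keeps a group of them along the fissure into adult life. The p53 relative Trp73 and the LIM and Ebf transcription factors are known marks of their identity.

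The tissue came from male C57BL/6J mice aged 12 weeks, and each of the 6 libraries pooled the hippocampi (dentate gyrus in the tissue label) of 5 mice. All mice were injected with vehicle (Veh) or with CI-994 (HDACi), a blocker of class I histone deacetylases, at 30 mg/kg. The injection preceded the exposure by 1 h, and tissue was taken 1 h after the exposure. For contextual fear conditioning (CFC) the exposure held 2 foot shocks of 0.2 mA, whereas the Context mice met the chamber alone. Each drug had 2 libraries after CFC and 1 after Context. One label conflict touches every Context value: the title and treatment field of the Veh-Context library name vehicle while its description names HDACi, and it is called here the library labelled Veh-Context. The nuclei were isolated with the transcription blocker actinomycin D present.

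The 6 libraries held 24508202 to 45570814 UMIs, and members supplied 110058 to 181770 UMIs per library from 38 to 45 nuclei. Median UMIs per member were 2206.5 to 2999.5 per library, against 5522 to 6981 over all nuclei that passed. The replicate libraries differed by more than sampling noise, with a chi-square per gene of 1.34 to 2.12 over the tested genes. Of all barcodes, 86 were listed in 2 or more libraries, which included 3 members, and 0 barcodes were members in 2 libraries.

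Few nuclei lay at the Reln and Gad edges of the rule, and more lay at the edge of the factor sum. Reln ranged from 7 to 179 UMIs per member with a median of 36 (quartiles 24 and 51.75). No member had 5 or 6 Reln UMIs, 9 had 7 to 9, and 1 further nucleus with 3 or 4 met the other limits. The factor sum had a median of 5, with 42 members at 2 and 31 at 3, while 25 nuclei with a sum of 1 and 83 with a sum of 0 met the other limits and stayed outside. Gad1 and Gad2 were both at 0 in 226 members and summed to 1 in 20. Another 3 nuclei with a sum of 2 and 1 with a higher sum were left out.

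The factors of the rule were seen in most members in combination. Trp73 was detected in 223 of the 246 members (90.7%), Ebf3 in 192 (78.0%), Lhx1 in 92 (37.4%), Nhlh2 in 77 (31.3%) and Lhx5 in 76 (30.9%). By number of factors, 26 members showed 1, 86 showed 2, 83 showed 3 and 51 showed 4 or 5. Dentate granule nuclei, which should lack these genes, had a Trp73 UMI in 0 to 2.07% per library and an Lhx1 UMI in 0 to 0.222%, at a median of 8067 UMIs per nucleus against 2596 in members. A microglial UMI of Ebf3 was seen in 4.49 to 11.2% of nuclei at a median of 1855.5 UMIs.

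The label held up on genes that the rule did not use. Of 24 further genes known from Cajal-Retzius cells, 17 were above all other nuclei in all 6 libraries, counted in members of fewer than 6000 UMIs (the limit is explained below). Levels here are class CPM, the UMIs of a gene scaled to all UMIs of the class, and no test applies because the members were chosen. By median ratio 15 of the 24 were at least 5-fold above, 5 had fewer than 20 member UMIs, and Spock1 lay below the rest in all 6 libraries. With all members the count above in all 6 was 15.

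Ndnf, which encodes a secreted neurotrophic factor of outer-layer neurons, stood at 1626 to 2002 class CPM in members against 5.55 to 9.70 in all other nuclei and 76.8 to 221 in Reln-high GABAergic nuclei. Cacna2d2, an auxiliary calcium channel subunit, stood at 840.5 to 1996 against 15.4 to 21.8, and Cxcr4, the receptor for the meningeal chemokine Cxcl12, at 29.6 to 128 against 0.626 to 1.65. The vesicular glutamate transporter gene Slc17a6 stood at 92.2 to 347 against 2.96 to 5.75 in the rest. Every one of these ranges cleared the range of the other nuclei.

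Cortical and caudal patterning factors were also high in members. Median ratios to the rest were 23.8 for Emx2, 16.4 for Nr2f2, 15.9 for Tbr1 and 15.4 for Zic1. Thsd7b had a ratio of 16.3, Diablo, a mitochondrial cell-death gene, 20.3, and Car10, a catalytically inactive carbonic anhydrase relative, 8.22. Spock1, a secreted proteoglycan gene, had a ratio of 0.327. Reln itself ran from 10321 to 21966 class CPM in members, from 1225 to 1709 in Reln-high GABAergic nuclei (at least 5 Reln and at least 2 Gad1 plus Gad2 UMIs) and from 43.4 to 64.3 in all other nuclei.

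**Figure D1:**
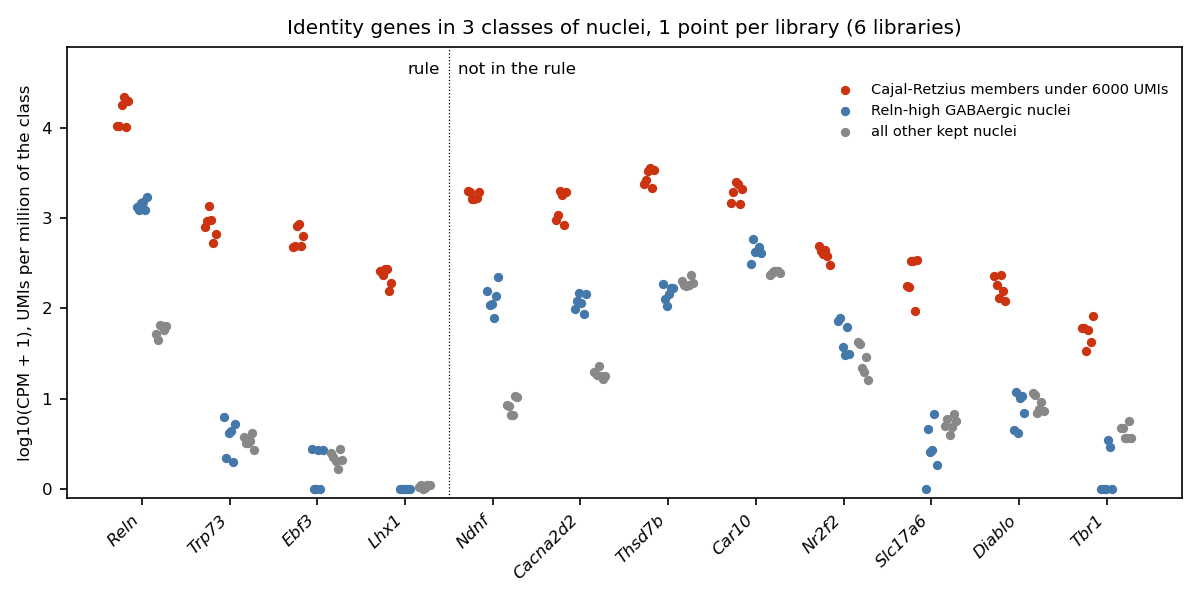
Levels of identity genes, as log10(CPM + 1) with CPM scaled to all UMIs of the class, in members under 6000 UMIs, Reln-high GABAergic nuclei and all other nuclei, with 1 point per library. Ndnf, Cacna2d2, Nr2f2 and Slc17a6 sit above the other nuclei in all 6 libraries.

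The genes with the highest smallest ratio to the rest over the 6 libraries gave a profile beyond the listed markers. Among 952 genes with at least 10 member UMIs in each library, Lhx1os, the transcript opposite Lhx1, led with a smallest ratio of 777. Lhx1 is a gene of the rule, so this ratio may not be independent of how the members were picked. Leaving out unnamed gene models and genes of the rule or the marker list, Cd274, which encodes the immune checkpoint ligand PD-L1, came next at 205, Fam159b at 129, Eln, encoding elastin, at 79.3 and Lrig3, a transmembrane signalling modulator, at 56.5. Next came Dach1, a nuclear cofactor (46), Hs3st5, a heparan sulfate sulfotransferase (37.9), Utrn, the dystrophin relative (28.8), Tmem163, a zinc transporter (28.7), and Casz1, a zinc finger factor (28.3). Elastin reached 565 to 1795 class CPM in members against 3.54 to 7.94 in the rest. Dach1 reached 1651 to 2266 against 18.2 to 37.2.

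GABAergic, granule and pyramidal markers were low in members, and glial and vascular markers were not low throughout. The 7 GABAergic markers summed to 146 to 495 class CPM in members under 6000 UMIs against 8998 to 11280 in Reln-high GABAergic nuclei, and Lhx6 was at 0. The 4 granule markers summed to 54.8 to 103 and the 5 pyramidal markers to 88.8 to 247. The 5 astrocyte markers ran from 128 to 444, the 4 microglial markers from 74.8 to 574 and the 6 oligodendrocyte markers from 187 to 738, each highest in a vehicle library. All other nuclei had 381 to 695, 196 to 414 and 865 to 1124 for these 3 lists, so the microglial sum of the library labelled Veh-Context (574) exceeded theirs. The 3 markers of oligodendrocyte precursors summed to 64.0 to 168 in members against 43.7 to 84.8 in all other nuclei. Vascular markers ran from 19.7 to 108 against 20.8 to 34.8, with Cldn5 and Slc6a13 at 0.

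A small group of members was very deep, and most of these carried genes of other neurons. Of the 246 members, 13 had 6000 or more UMIs (6120 the lowest, 5867 the highest below the limit), and they numbered 1 and 0 in the Veh-CFC libraries and 2 and 3 in the HDACi-CFC libraries. The Context pair had 2 with vehicle and 5 with HDACi by label. Their share of the member UMIs was 7.87% and 0% for Veh-CFC but 20.0% and 27.4% for HDACi-CFC. It was 16.5% and 39.8% for Context with vehicle and with HDACi. A doublet caller marked 12 of the 246 members, 7 of them among these 13. Grin2a, Dlgap1 and Celf2, genes of mature pyramidal and granule neurons among others, summed to a median of 137 UMIs in the 13 (1 to 361) and of 1 UMI in the other 233 (at most 18, with 50 nuclei at 0). Each drug result below is therefore given with all members and with the 233 under 6000 UMIs, a limit set after seeing the data.

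**Figure D2:**
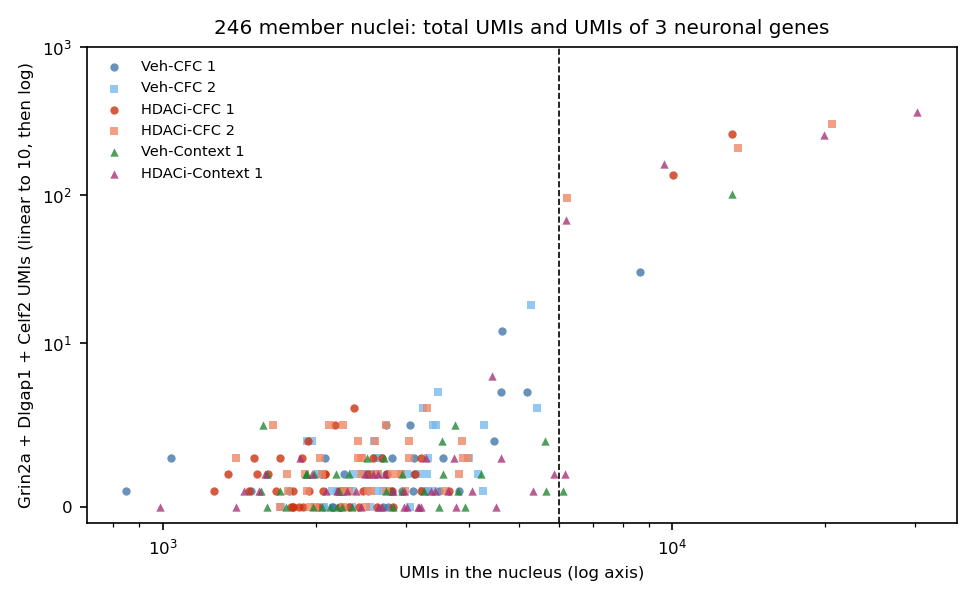
Total UMIs of each of the 246 members (log axis) against their summed Grin2a, Dlgap1 and Celf2 UMIs (linear to 10, then log), coloured by group; the dashed line is 6000 UMIs. The 233 nuclei left of the line hold at most 18 UMIs of the 3 genes, whereas the 13 to its right have a median of 137.

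The share of nuclei that met the rule on counts as deposited overlapped between the drug groups. It was 1.00% (95% exact binomial interval 0.709 to 1.37) and 0.837% (0.596 to 1.14) in Veh-CFC, and 1.18% (0.855 to 1.57) and 0.883% (0.645 to 1.18) in HDACi-CFC. The library labelled Veh-Context had 0.760% (0.539 to 1.04) and HDACi-Context 0.767% (0.554 to 1.04). The CFC groups overlapped, at 0.919% ± 0.116 (SD, n = 2) against 1.03% ± 0.207 (SD, n = 2), and 2 libraries against 2 could not give an exact two-sided p below 0.333. With the rule on counts thinned to 3000 UMIs the order turned, at 0.391% and 0.487% for Veh-CFC against 0.184% and 0.258% for HDACi-CFC, without overlap. Only nuclei of at least 3000 UMIs count there, and median UMIs per member were 2206.5 to 2999.5 per library. Thinned to 1000 UMIs the order was that of the deposited counts, also without overlap. Veh-CFC then had 0.484% and 0.524% and HDACi-CFC replicate 2 0.575%, while HDACi-CFC replicate 1 stayed within its interval of 0.855 to 1.57. Intervals cover counting error only.

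Members of the HDACi-CFC libraries held fewer detected genes and somewhat fewer UMIs than those of Veh-CFC. Under 6000 UMIs, the median number of genes after CFC was 1555 and 1631 with vehicle but 1137.5 and 1261 with HDACi, with median UMIs of 2617 and 2675 against 2133.5 and 2457. In Context the medians were 1508.5 genes for the library labelled Veh-Context and 1412 for HDACi-Context, at 2341 and 2830 UMIs. The genes that entered the test held 68.0% and 67.3% of the UMIs with vehicle but 76.7% and 76.4% with HDACi. Scaling by total UMIs instead of the TMM method moved the median log2 fold change of all tested genes from -0.03 to -0.29, and scaling per nucleus moved it to -0.38.

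The first drug comparison asked which genes differed between HDACi and vehicle in members after CFC. UMIs were summed per library, and 2 HDACi-CFC libraries were set against 2 Veh-CFC libraries with edgeR's quasi-likelihood test and Benjamini-Hochberg adjustment. With all members, 514 of 2452 tested genes passed an adjusted p of 0.05 (21.0%), 326 higher under HDACi (13.3%) and 188 lower (7.67%). Under 6000 UMIs, 537 of 2130 passed (25.2%), 323 higher (15.2%) and 214 lower (10.0%). The same genes with the same direction were 331 of these, which is 64.4% of the calls with all members and 61.6% of the calls under 6000 UMIs.

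The count leaned on single libraries when the deep members stayed in. Without Veh-CFC replicate 2, 0 genes passed by edgeR with all members (499 had an unadjusted p under 0.05), and without Veh-CFC replicate 1, 57 passed. Under 6000 UMIs, leaving out Veh-CFC replicate 1 or 2 left 280 or 252 calls in place of 537, and leaving out HDACi-CFC replicate 1 or 2 left 315 or 295. Of the 537, 136 genes passed in all 4 of these fits, 131 higher and 5 lower. DESeq2 called 95 genes with all members (92 higher, 3 lower) and 105 under 6000 UMIs (100 higher, 5 lower). Scaling by total UMIs gave 207 higher and 411 lower under 6000 UMIs, and scaling per nucleus gave 146 and 425. With all members these splits were 225 and 338, and 221 and 175.

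The genes that rose most under 6000 UMIs were named by size among calls with at least 60 UMIs and no overlap between the groups. Levels are CPM, here scaled to the UMIs of the tested genes by TMM over the 6 libraries, which differs from class CPM. Fndc1, encoding a fibronectin type III domain protein, stood at 26.2 and 45.9 CPM in Veh-CFC and at 428 and 436 in HDACi-CFC. Both treated libraries were far above both vehicle libraries, with a log2 fold change of 3.50 ± 0.52 (SE, adjusted p = 1.29e-09). With all members it was 3.21. A Fndc1 UMI was seen in 5.41% and 7.69% of vehicle members and in 40.5% and 45.2% of treated ones, and in 3.15%, 5.07%, 34.2% and 32.9% after thinning each nucleus to 1500 UMIs (3, 0, 3 and 1 shallower nuclei left out). Microglial nuclei had one in 0.415 to 1.06%, at a median of 1855.5 UMIs against 2531 in these members. Fndc1 lies on chromosome 17 at 7738569 to 7827302 (minus strand, GRCm38).

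Casz1, encoding a zinc finger transcription factor of neural differentiation, stood at 157 and 161 CPM in Veh-CFC and at 1008 and 779 in HDACi-CFC. The groups did not overlap, and the log2 fold change was 2.47 ± 0.32 (SE, adjusted p = 9.43e-13). Unc5b, a receptor for the guidance cue netrin, stood at 210 and 149 against 962 and 673 CPM (2.18 ± 0.31, adjusted p = 3.76e-10). Ston2, an endocytic adaptor for synaptic vesicle proteins, stood at 118 and 172 against 978 and 792 (2.57 ± 0.32, adjusted p = 2.97e-13). In each of these the lower treated library was more than 3-fold above the higher vehicle library. Casz1 spans chromosome 4 from 148804429 to 148954889 (plus strand) and Unc5b chromosome 10 from 60762593 to 60831581 (minus strand).

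Btg2, an antiproliferative early response gene, stood at 52.5 and 57.4 CPM in Veh-CFC and at 382 and 475 in HDACi-CFC, a log2 fold change of 2.93. Bcl6, a transcriptional repressor that recruits deacetylase complexes, stood at 118 and 34.4 against 428 and 475 (2.59). The tetraspanin gene Tspan9 stood at 78.7 and 126 against 611 and 699 (2.64). The other 5 of the 12 named genes that rose were Pmepa1, a brake on TGF-beta signalling (2.36), Sipa1l3, a relative of the spine protein SPAR (2.35), Wscd2 (2.32), Arhgap23, a GTPase-activating protein gene (2.23), and Abtb2 (2.22). All 12 passed in each fit that left out 1 library, with DESeq2 and under both other scalings.

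Named genes that fell did so by less. Mmp16, a membrane-bound matrix metalloprotease, stood at 695 and 849 CPM in Veh-CFC and at 199 and 224 in HDACi-CFC (log2 fold change -1.86 ± 0.31, SE, adjusted p = 9.82e-08). Ulk2, a kinase that starts autophagy, stood at 380 and 471 against 137 and 106 (-1.81). These groups did not overlap, and both genes passed in every fit that left out 1 library. Mmp16 lies on chromosome 4 at 17852893 to 18119145 (plus strand).

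The other 10 named genes that fell under 6000 UMIs each lost their call when at least 1 library was left out, most often HDACi-CFC replicate 2. They were the casein kinase gene Csnk1g1 (-1.97), the sorting adaptor gene Pacs1 (-1.86), the microtubule regulator gene Rmdn1 (-1.78), Gpr137c (-1.77), the BK channel subunit gene Kcnmb2 (-1.73), Manf, encoding an endoplasmic reticulum stress-induced trophic factor (-1.72), the Golgi exchange factor gene Gbf1 (-1.71), the ubiquitin ligase gene Ube3c (-1.64), Nrf1, a regulator of respiratory chain genes (-1.62), and Ankhd1 (-1.60). Kcnmb2 stood at 354 and 356 CPM against 61.1 and 145. Gbf1 stood at 288 and 321 against 122 and 66.0. Manf overlaps Rbm15b, and Rmdn1 overlaps Gm12353, on the same strand, so part of their UMIs could belong to the overlapping gene.

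**Figure D3:**
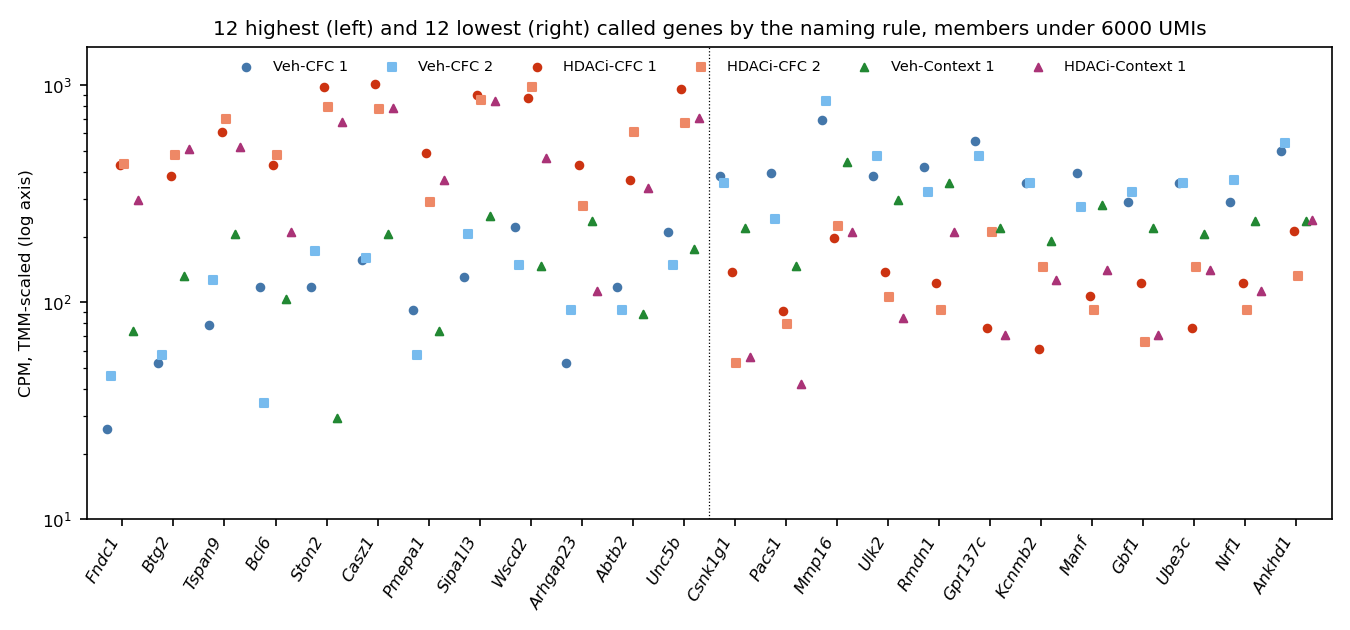
CPM (log axis, TMM-scaled over the 6 libraries) of 12 called genes that rose and 12 that fell, picked by size under the naming rule, in members under 6000 UMIs, with 1 point per library. For Fndc1 the HDACi-CFC points sit at 428 and 436 and the Veh-CFC points at 26.2 and 45.9; for Mmp16 they sit at 199 and 224 against 695 and 849.

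Promoter sequence was set beside these changes because the GC box, GGGCGG on either strand, is the core motif bound by Sp1-family factors that are known partners of class I deacetylases. The 250 bases before the RefSeq start (GRCm38.p6, minus strand for all 4 genes, printed 5′ to 3′ along the gene) are shown for Reln, the gene that defines the cells, for Btg2 and Unc5b, which rose, and for Ulk2, which fell. GC boxes are in capitals. The windows are chr5:22344706-22344955 for Reln, chr1:134079156-134079405 for Btg2, chr10:60831582-60831831 for Unc5b and chr11:61855093-61855342 for Ulk2.
Reln: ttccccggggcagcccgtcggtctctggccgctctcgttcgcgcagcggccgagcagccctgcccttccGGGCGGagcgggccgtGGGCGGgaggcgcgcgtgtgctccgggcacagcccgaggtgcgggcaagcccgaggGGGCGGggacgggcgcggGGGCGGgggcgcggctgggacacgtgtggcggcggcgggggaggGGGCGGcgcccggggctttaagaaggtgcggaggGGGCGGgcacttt
Btg2: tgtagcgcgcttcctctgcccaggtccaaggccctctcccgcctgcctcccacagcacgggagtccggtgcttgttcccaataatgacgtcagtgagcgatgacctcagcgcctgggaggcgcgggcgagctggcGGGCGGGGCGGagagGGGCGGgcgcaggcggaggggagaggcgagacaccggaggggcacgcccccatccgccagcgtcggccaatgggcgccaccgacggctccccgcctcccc
Unc5b: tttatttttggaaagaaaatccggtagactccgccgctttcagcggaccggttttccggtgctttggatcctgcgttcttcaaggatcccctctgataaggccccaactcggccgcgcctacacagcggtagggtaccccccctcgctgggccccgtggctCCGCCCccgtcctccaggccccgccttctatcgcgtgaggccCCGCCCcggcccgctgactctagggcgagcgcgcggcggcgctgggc
Ulk2: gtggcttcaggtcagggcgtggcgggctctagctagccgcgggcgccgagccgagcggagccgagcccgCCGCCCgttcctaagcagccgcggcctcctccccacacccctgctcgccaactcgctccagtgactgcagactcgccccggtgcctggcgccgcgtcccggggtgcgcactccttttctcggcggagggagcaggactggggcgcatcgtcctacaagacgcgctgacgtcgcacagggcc
The 4 windows held 6, 3, 2 and 1 GC boxes, counting overlapping matches, and Reln's was 80.0% G or C. Such a box occurred in 32.7% of all 32851 promoter windows of this length. Counted per gene, in any of its windows, it occurred in 35.4% of 27025 genes and in 68.4% of the 1621 tested genes with a window. Of the called genes with a window, 72.3% of those that rose (175 of 242) and 62.2% of those that fell (102 of 164) had one. These shares are a description without a test. The windows printed were chosen after their values were seen, and other named genes went the other way. Casz1, Ston2 and Sipa1l3 rose with 0 GC boxes, while Pacs1 fell with 4, and Gpr137c and Ube3c with 3 each.

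Reln levels were higher under the inhibitor in all HDACi libraries. As a gene of the rule, Reln is described here without a test. Under 6000 UMIs, Reln stood at 14083 and 14187 CPM in Veh-CFC and at 25540 and 31015 in HDACi-CFC. The Context pair gave 14837 without and 30749 with the inhibitor, going by the labels. After CFC the treated libraries did not overlap the vehicle libraries. Overlap cannot be judged in Context, where each drug had a lone library. Median Reln UMIs per member were 29 and 31 for Veh-CFC and 40 and 49.5 for HDACi-CFC. For Context they were 22.5 with vehicle and 56 with HDACi by label. Reln spans chromosome 5 from 21884454 to 22344702 (minus strand).

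The factors of the rule differed among themselves. Ebf3 stood at 643 and 654 CPM in Veh-CFC and at 1161 and 1227 in HDACi-CFC, without overlap. Trp73 stood at 1062 and 1251 against 1940 and 1359, and Lhx1 at 341 and 310 against 382 and 383. Lhx5 (105 and 264 against 397 and 172) and Nhlh2 (170 and 161 against 153 and 251) overlapped between the groups. The rule set a floor of 2 UMIs in the sum of these factors, so their levels are a description without a test. Members of HDACi-CFC were shallower, at median UMIs of 2133.5 and 2457 against 2617 and 2675 in Veh-CFC. The part of the floor in these values was not tested.

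Among the 11 of the 24 identity genes that entered the test under 6000 UMIs, 4 rose and 1 fell, against 15.2% higher and 10.0% lower over all tested genes. Total-UMI scaling gave 1 and 2, and per-nucleus scaling 1 and 1. The median log2 fold change was 0.55 against -0.03 over all tested genes. Cacna2d2 stood at 1272 and 1469 CPM in Veh-CFC and at 2826 and 2587 in HDACi-CFC. The groups did not overlap, and the log2 fold change was 0.98 ± 0.17 (SE, adjusted p = 7.33e-07). With all members it was 0.66 (adjusted p = 0.0207), and Cacna2d2 was then the only identity gene that rose. That call was lost under both other scalings, with DESeq2 and without either vehicle library, and with the rule on counts thinned to 3000 UMIs the value was -0.0076.

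Slc17a6 rose from 236 and 230 to 474 and 475 CPM (1.02, adjusted p = 0.0141), Car10 by 0.62 and Thsd7b by 0.55 on the log2 scale. These 3 calls were lost with all members, with DESeq2 and under both other scalings. Slc17a6 also lost its call without either vehicle library, and Car10 without Veh-CFC replicate 1. Edil3, encoding an integrin-binding matrix protein, fell from 774 and 1228 to 611 and 436 CPM (-0.96, adjusted p = 0.000922), with -1.02 for all members. Its call ended with DESeq2, without HDACi-CFC replicate 2 and without Veh-CFC replicate 2.

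Ndnf did not pass, at 2662 and 2606 CPM against 2322 and 2296 (-0.19, adjusted p = 0.423). Scaling by total UMIs, which lowers all values, made this a call at -0.45. Nr2f2 (-0.06), Emx2 (0.10) and Diablo (-0.05) did not pass either, whereas Rcan2, a calcineurin regulator gene, had a value of 0.63 with an adjusted p of 0.113.

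Of 34 genes of the reelin pathway besides Reln, 10 entered the test under 6000 UMIs, and 2 rose while 0 fell, a count near the background of 15.2% higher and 10.0% lower. Total-UMI scaling gave 2 and 1, and per-nucleus scaling 0 and 1. Cdk5r1, which encodes the p35 activator of Cdk5, stood at 39.3 and 57.4 CPM against 137 and 185 (1.70, adjusted p = 0.0118). Map1b, a microtubule protein phosphorylated downstream of reelin, stood at 498 and 551 against 1115 and 884 (0.92, adjusted p = 0.00143). Neither group of values overlapped, and both genes passed with all members too (1.54 and 1.08). Cdk5r1 lost its call when either vehicle library or HDACi-CFC replicate 1 was left out, both lost it under per-nucleus scaling, and Map1b also with DESeq2.

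Dab1, the adaptor that carries the reelin signal, stood at 170 and 287 CPM against 214 and 290 under 6000 UMIs (0.13, adjusted p = 0.838). With all members its log2 fold change was 1.70 (adjusted p = 0.000374). Fyn, the Src-family kinase of the pathway, had 0.34, Gsk3b -0.19, Pafah1b1, the lissencephaly gene, 0.30 and Mapt -0.23, none of them called.

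Synaptic vesicle genes included the large change of Syn2. Of 15 tested presynaptic genes under 6000 UMIs, 5 rose and 1 fell, against 15.2% higher and 10.0% lower over all tested genes. Total-UMI scaling gave 3 and 2, and per-nucleus scaling 1 and 2. Syn2, the synapsin II gene, stood at 564 and 597 CPM in Veh-CFC and at 2383 and 2547 in HDACi-CFC. That is a log2 fold change of 2.08 ± 0.20 (SE, adjusted p = 3.22e-22), with no overlap, and with all members it was 1.99 (adjusted p = 3.9e-06). The 5 deep HDACi-CFC members held 82 of the 431 Syn2 UMIs of that group (19.0%).

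Syn3 (1.50), the vesicle calcium sensors Syt7 (1.56) and Syt1 (0.53) and the active zone gene Erc2 (0.61) also rose, while the related Erc1 fell (-1.22). Of these 5 genes Erc2 alone passed in each fit that left out 1 library. Syn3 and Syt7 lost their calls without Veh-CFC replicate 2 or HDACi-CFC replicate 1, Syt1 without Veh-CFC replicate 2 or HDACi-CFC replicate 2, and Erc1 without each library but HDACi-CFC replicate 1. Syn1, the synapsin I gene, stood at 275 and 207 CPM against 183 and 185 in these members (-0.37, adjusted p = 0.558). Snap25, a core fusion protein gene, stood at 892 and 895 against 886 and 897. Syn2 lies on chromosome 6 at 115134902 to 115282006 (plus strand) and overlaps Gm17482 on the same strand.

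Of 13 tested genes in the list of potassium channels, 5 rose under 6000 UMIs and 0 fell, against 15.2% higher and 10.0% lower over all tested genes. The list does not hold Kcnmb2, which fell, or Kcnq1, which rose (0.98), 2 more potassium channel genes that passed. For the list, total-UMI scaling gave 2 higher and 1 lower and per-nucleus scaling 1 and 1. The call that held under all of these was Kcnip1, encoding a regulator of A-type Kv4 channels. It stood at 367 and 539 CPM in Veh-CFC and at 1879 and 1557 in HDACi-CFC (1.90, adjusted p = 1.83e-15), and with all members it had 1.62. Kcnd3 (1.03), Kcnk9 (1.46), Kcnip4 (0.48) and Kcnh7 (0.37) also passed with TMM scaling. Kcnb2, a delayed rectifier gene, stood at 5704 and 6887 against 5377 and 6480 and overlapped. Kcnip1 overlaps 4930469K13Rik on the same strand.

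In the list of calcium and sodium channels, 4 of 10 tested genes rose, all of them calcium channel genes, and 0 fell, against 15.2% higher and 10.0% lower over all tested genes. Total-UMI scaling kept a count of 4 higher, and per-nucleus scaling gave 2 higher and 1 lower. Besides Cacna2d2, its relative Cacna2d3 rose from 525 and 712 to 1161 and 1439 CPM (1.07, adjusted p = 2.32e-05), without overlap. The pore-forming Cacna1a (P/Q type) and Cacna1c (L type) each had 0.74, at 1193 and 999 against 1802 and 1834 CPM and 970 and 1010 against 1558 and 1755. Cacna2d1, the third of these subunits in the test, had 0.20 and did not pass (adjusted p = 0.386).

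Axon guidance genes rose in 6 of 13 tested, with 0 lower, against 15.2% higher and 10.0% lower over all tested genes. Either other scaling gave 3 higher and 0 lower. Beside Unc5b, Ntng2, encoding netrin-G2, stood at 629 and 539 CPM against 1955 and 1702 (1.65, adjusted p = 5.58e-13). The semaphorin gene Sema6a (0.88) and the semaphorin receptor genes Plxna4 (0.97) and Plxnd1 (1.64) also passed. Robo2, a Slit receptor gene, had 0.39 (adjusted p = 0.0334) and lost its call under both other scalings. Without Veh-CFC replicate 2 the calls of Sema6a, Plxna4, Plxnd1 and Robo2 ended, as they did for Robo2 without Veh-CFC replicate 1, for Plxnd1 without HDACi-CFC replicate 1, and for Sema6a and Plxna4 without HDACi-CFC replicate 2. Dcc, another netrin receptor gene, stood at 2413 and 2066 against 2032 and 2653 and overlapped.

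Adhesion and receptor genes gave few calls under 6000 UMIs, with the balance set by the scaling. Over all tested genes 15.2% were higher and 10.0% lower. Of 35 tested adhesion genes, Tenm4 (0.81) and Opcml (0.60) rose and Nlgn1 (-0.93) and Cdh10 (-1.29) fell, whereas total-UMI scaling gave 1 higher and 6 lower and per-nucleus scaling 0 and 5. Nlgn1 lost its call without any 1 of the libraries, and Cdh10 without each but Veh-CFC replicate 1. Of 9 tested glutamate receptor genes, 0 rose and Gria4, an AMPA receptor subunit gene, fell from 1796 and 2089 to 1008 and 1412 CPM (-0.67, adjusted p = 0.00254). Either other scaling gave 0 higher and 2 lower in that list. It fell with all members too (-0.95), but lost its call with DESeq2, without HDACi-CFC replicate 1 and without Veh-CFC replicate 2. Of 8 tested genes for GABA receptors and chloride balance, 0 passed. The lists had been chosen with results of these data known.

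**Figure D4:**
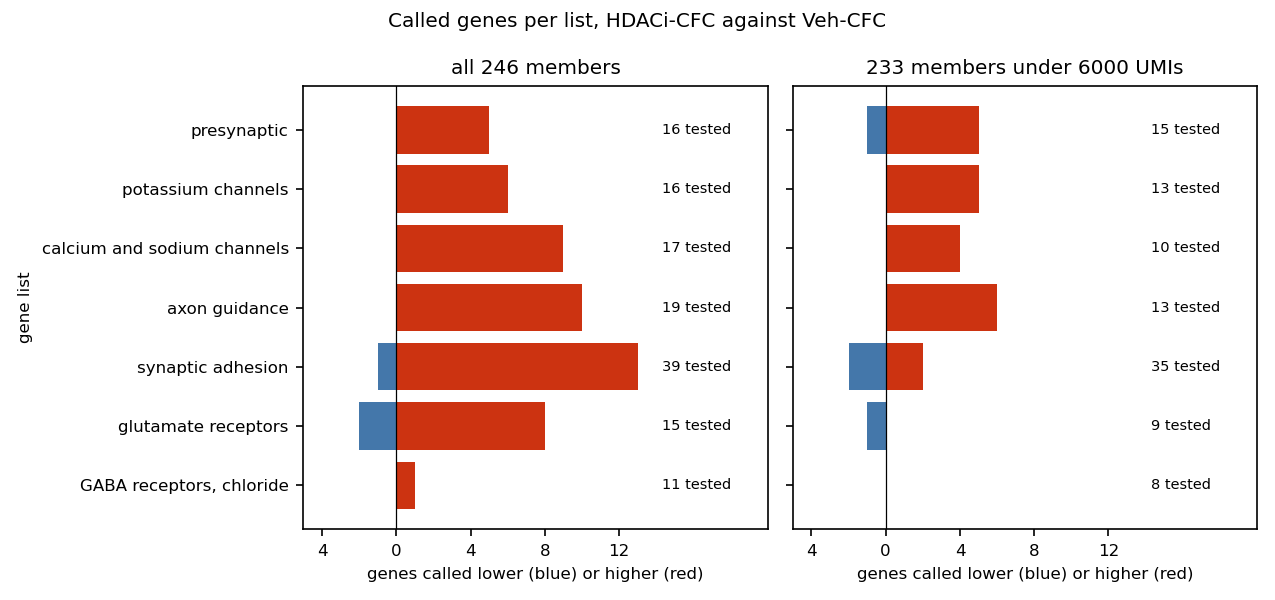
Genes called lower (blue, left) and higher (red, right) in 7 gene lists, HDACi-CFC against Veh-CFC, with all members and in members under 6000 UMIs. Glutamate receptor genes show 8 higher and 2 lower calls with all members and 0 higher and 1 lower under 6000 UMIs. Of all tested genes 13.3% were higher and 7.67% lower with all members, and 15.2% and 10.0% under 6000 UMIs.

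With all members, deep nuclei included, receptor and adhesion genes gave other counts. There 8 of 15 tested glutamate receptor genes rose and 2 fell, and 13 of 39 adhesion genes rose and 1 fell. Over all tested genes of that fit 13.3% were higher and 7.67% lower. Grin2a, encoding an NMDA receptor subunit, was the highest, at 106 and 78.4 CPM in Veh-CFC against 1310 and 1302 in HDACi-CFC (3.81, adjusted p = 1.1e-07). The 5 HDACi-CFC nuclei of 6000 or more UMIs, of 89 members, held 219 of its 249 UMIs (88.0%).

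The same nuclei held 83.8% of the Camk2a UMIs of that group, 93.6% of Dlgap2, 90.6% of Ryr2 and 86.6% of Epha6, and those genes had log2 fold changes of 3.51, 3.26, 3.24 and 2.81 with all members. They held 4.92% of the Reln UMIs. Granule and pyramidal markers in all members summed to 90.9 and 77.1 and to 127 and 111 class CPM in Veh-CFC, and to 328 and 156 and to 164 and 319 in HDACi-CFC. Nlgn1 turned from 1.59 with all members to -0.93 under 6000 UMIs, and Kcnd2 from 1.46 to -0.93, where it did not pass (adjusted p = 0.0713). With all members the named genes that rose also included Fam19a1 (3.01), Dock4 (2.74), Dok6 (2.69) and Frmpd4 (2.49). Among those that fell were the kinase genes Pak7 (-2.33) and Pak3 (-1.71), Osbpl9 (-1.76) and Atad2b (-1.75). Of the genes called with all members, 0 passed in all 4 fits that left out 1 library.

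Genes of the acetylation machinery were sparse. Hdac8 was the only class I deacetylase gene tested under 6000 UMIs, at 236 and 253 CPM against 260 and 158 (-0.24, adjusted p = 0.696). Of the acetyltransferase list, Ep300 (-1.30) and Ncoa2 (-0.81) fell and Ncoa1 (0.56) rose among 5 tested. Over all tested genes 15.2% were higher and 10.0% lower. Either other scaling gave 0 higher and 3 lower in the acetyltransferase list. The Ncoa1 call ended under both, and also without Veh-CFC replicate 1 or HDACi-CFC replicate 2. Hdac9, a class II deacetylase gene, fell from 157 and 218 to 45.8 and 79.2 CPM (-1.55, adjusted p = 0.0149). The Ep300, Ncoa2 and Hdac9 calls were lost in each fit that left out 1 library. Of the 24 immediate early genes, Btg2 was the only one with enough UMIs to be tested, and of 22 cholesterol genes 0 were.

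Of 20 genes that respond most in granule nuclei, 9 were tested in members under 6000 UMIs, with 1 higher (Fam49a, 1.27) and 2 lower (Trim37, -1.35, and Gdpd1, -2.32). Over all tested genes 15.2% were higher and 10.0% lower. Either other scaling gave 0 higher and 2 lower in this list. The list of 20 came from earlier results of these libraries and is no independent evidence. Among marker genes of other cells, Cspg4, of oligodendrocyte precursors, had 1.20 (adjusted p = 0.0462) under 6000 UMIs, a call lost under both other scalings. The part of other cells' RNA in the results was not tested beyond the values given here. Summed counts alone cannot tell fewer nuclei with a gene from less of its RNA per nucleus. Member numbers, depth per nucleus and, for Fndc1, the share of nuclei are given above.

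The second question was whether the drug effect in members differed from that in other neurons. The interaction of class and drug was tested over the 4 CFC libraries with library as a block. Against Reln-high GABAergic nuclei (62 to 97 per CFC library), 6 of 7504 genes differed with all members (0.08%; 634 had an unadjusted p under 0.05) and 78 of 7649 under 6000 UMIs (1.02%), 60 higher (0.784%) and 18 lower (0.235%). On its own the GABAergic class had 5.36% of 8828 genes called (3.75% higher, 1.61% lower) and the granule class 40.6% of 12693 (20.4% and 20.2%). Against dentate granule nuclei (227 to 450 per CFC library), 178 of 10914 differed with all members (1.63%), 167 higher (1.53%), and 173 of 11077 under 6000 UMIs (1.56%), 98 higher (0.885%) and 75 lower (0.677%). Leaving out 1 library gave 18 to 66 calls in place of 78 and 70 to 99 in place of 173.

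Fndc1 differed most. Its effect in members exceeded that in GABAergic nuclei by 4.31 (adjusted p = 0.000239) and that in granule nuclei by 4.27 (adjusted p = 1.59e-08) on the log2 scale, and its own change was -0.42 in GABAergic and -0.57 in granule nuclei, neither called. With all members the Fndc1 difference from GABAergic nuclei was 4.02 and missed the threshold (adjusted p = 0.054). Casz1 exceeded the GABAergic effect by 3.83 (adjusted p = 0.000356). In class CPM, Casz1 was at 118 and 120 in vehicle members and 712 and 551 in treated ones, against 13.8 and 13.3 and then 4.76 and 5.84 in GABAergic nuclei. The GABAergic values of Casz1 rest on few UMIs, as 2 UMIs equal 3.17 class CPM there in HDACi-CFC replicate 1.

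Aatf, encoding a cofactor in transcription and apoptosis control, moved in opposite directions. In members it stood at 178 and 197 class CPM in Veh-CFC and at 637 and 570 in HDACi-CFC (1.76, adjusted p = 7.68e-08). GABAergic nuclei had 58.8 and 50.9 against 15.9 and 18.4 (-1.39, adjusted p = 0.0354), and granule nuclei 52.5 and 48.7 against 13.2 and 14.6 (-1.47, adjusted p = 5.11e-07). The interactions were 3.49 (adjusted p = 1.47e-07) and 3.37 (adjusted p = 1.87e-14). Aatf (chromosome 11, 84422855 to 84513522) lies on the minus strand just downstream of Lhx1 (84518284 to 84525535, minus strand), a gene of the rule, and any part of Lhx1 transcription in the Aatf counts was not tested.

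Elastin and Abat, the gene of the enzyme that degrades GABA, followed the same pattern against granule nuclei. Eln stood at 641 and 565 class CPM against 1619 and 1795 in members (1.59) and at 6.89 and 4.10 against 1.65 and 1.33 in granule nuclei (-1.41), an interaction of 3.16 (adjusted p = 3.63e-06). The granule values of Eln rest on few UMIs, as 2 UMIs equal 0.826 class CPM there in HDACi-CFC replicate 1. Abat stood at 78.9 and 103 against 367 and 299 in members, and at 32.9 and 26.4 against 11.1 and 9.57 in granule nuclei, an interaction of 3.20. Gas2, a regulator of the actin cytoskeleton, had 3.02. Mmp16 went the other way, with -2.34 against granule nuclei (adjusted p = 1.76e-09), where it rose by 0.62, and -1.49 against GABAergic nuclei, the latter not called with all members (-1.04, adjusted p = 0.452).

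Apoe, an astrocyte and microglial lipid carrier gene, fell in members from 542 and 599 to 173 and 299 class CPM (-1.17), and differed from GABAergic nuclei by -2.62, where the values were 65.7 and 93.3 against 66.7 and 445. With all members that Apoe difference was not called (-2.21, adjusted p = 0.223). The astrocyte markers of those members stood at 444 and 128 class CPM in Veh-CFC and at 151 and 196 in HDACi-CFC. In the GABAergic nuclei they stood at 89.9 and 66.6 against 119 and 548. Gpc5, another astrocyte-rich gene, was at 454 and 85.6 against 54.0 and 18.7. The part of astrocyte RNA in these differences was not tested.

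The Context pair was set beside the CFC result as a second view of the drug. With 1 library per group it has no test, and intervals cover counting error only. Under 6000 UMIs, 402 of the called genes had at least 20 UMIs in the pair, and 379 of them (94.3%) lay on the same side as in CFC, against 75.0% of all 1601 tested genes with that many UMIs. Of 288 genes higher in CFC, 276 were higher in Context, 192 with an interval off 0, and 1 had an interval off 0 on the opposite side. Of 114 genes lower in CFC, 103 were lower, 45 with an interval off 0, with 1 opposite. With all members the same-side share was 94.2% of 429 called genes against 73.2% of 2125.

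In the pair, vehicle before HDACi, Syn2 stood at 560 and 2491 CPM, a log2 ratio of 2.15 (95% interval 1.64 to 2.70). Kcnip1 stood at 471 and 2111 (2.16, 1.60 to 2.76), Casz1 at 206 and 788 (1.93, 1.07 to 2.89) and Unc5b at 177 and 704 (1.99, 1.06 to 3.04). Each interval lay above 0. Cacna2d2 stood at 1208 and 2997 (1.31, 0.937 to 1.70), Fndc1 at 73.7 and 296 (2.00, 0.558 to 3.77) and Btg2 at 133 and 507 (1.93, 0.853 to 3.17). Mmp16 stood at 442 and 211 (-1.07, -2.07 to -0.127) and Ulk2 at 295 and 84.4 (-1.80, -3.41 to -0.435).

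Ndnf stood at 2387 and 2983 in Context (0.32, 0.0199 to 0.626), the other side from its CFC value. Arhgap23 stood at 236 and 113 (-1.07, -2.50 to 0.242), Edil3 at 1105 and 901 (-0.30, -0.799 to 0.206) and Ankhd1 at 236 and 239 (0.02, -1.05 to 1.10). These intervals reached 0 for the last 3.

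**Figure D5:**
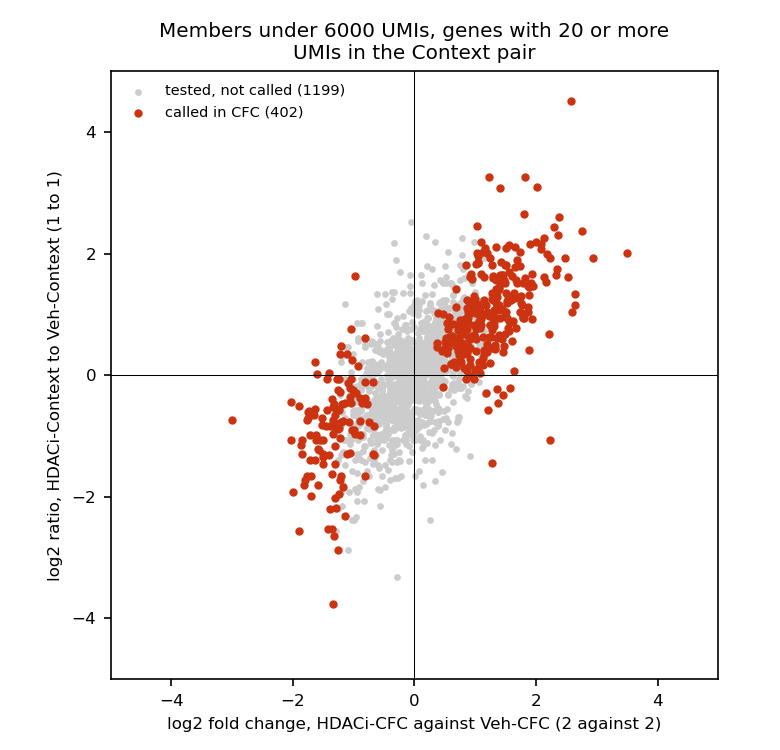
Log2 fold change in CFC (2 against 2 libraries, x axis) against the log2 ratio of the Context pair (1 to 1, y axis) in members under 6000 UMIs, for 1601 tested genes with 20 or more UMIs in the pair, 402 of them called in CFC. Of the called genes 379 lie on the same side of 0 on both axes.

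The drug effect in CFC was also tested against that in Context, with the lone Context libraries assumed to vary like the CFC libraries. With all members 2 of 3909 genes differed (0.0512%; 170 had an unadjusted p under 0.05), and under 6000 UMIs 5 of 3488 (0.143%), 3 higher (0.086%) and 2 lower (0.0573%). Nkain2, encoding a sodium pump-interacting membrane protein, differed in both sets, by 2.24 and 2.61. Under 6000 UMIs it stood at 286, 283, 335 and 308 class CPM in the CFC libraries and at 1066 and 192 in Context without and with the drug by label, so the single high library was the one with the label conflict. Nkain2 is also abundant in oligodendrocytes, and the oligodendrocyte markers of these members were at 738 class CPM in that library against 187 to 375 in the other 5. Their part in the difference was not tested.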

How the data were processed

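Gene counts were measured in nuclei of 6 hippocampal libraries, each pooled from 5 mice, with the 10x 3′ chemistry. The authors deposited raw UMI counts per gene and nucleus, made with Cell Ranger 3.0.1 (CFC) and 3.0.2 (Context) per the file headers. The build was mm10, and Seurat 4.0.3 is named, per the submitters' processing notes; whether intronic reads were counted is not given in the sources used here. The labels' protocols speak of a pool of 4 libraries, so the Context pair may have been sequenced apart.

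Members and gene lists were chosen with earlier results of these data known. Member UMIs were summed per library and tested with edgeR 4.0.16 (R 4.3.3, quasi-likelihood, TMM scaling, filterByExpr, Benjamini-Hochberg adjustment, threshold 0.05). The smallest total was 24508202 UMIs per library, and member sums of 110058 UMIs or more left most genes too sparse to test. Class and exposure interactions used the same tool, and Context ratios carry exact conditional binomial 95% intervals. On simulated data with a set spread, the CFC test recovered 13 of 50 genes raised 2-fold and 4 of 50 lowered 2-fold. At 4-fold it recovered 47 and 33, with 2 false calls in all. The interaction with GABAergic nuclei recovered 1 and 2 of 50 at 2-fold and 22 and 17 at 4-fold. The exposure interaction recovered 0 and 0 at 2-fold and 6 and 5 at 4-fold. In that simulation small changes, falls and interactions were often missed. It used the depth of all members, and its spread was not fitted to these libraries. P-values measure the spread between 2 pooled libraries per group. Replicate numbers did not pair the libraries, as given with the alternatives in the closing section.

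The 12 highest and 12 lowest fold changes were named among called genes with at least 60 UMIs over the CFC libraries and no overlap, leaving out unnamed gene models. For interactions 5 per direction were named, and list genes were described called ones first, up to 6 a list. Features singled out beyond this were chosen after their values were seen. Alternatives were DESeq2 1.42.0, other scalings, no filter, other rule limits, thinned counts, doublet removal with Scrublet (scanpy 1.11.5, Python 3.11.15, expected rate 0.06) and each library left out. Granule nuclei were defined by at least 3 Prox1 and 1 C1ql2 plus Dsp UMIs. Doublets stayed in unless stated. Some list genes are not reported here.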

Additional observations from a re-analysis of the deposited data

Results flagged for a closer look

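The drug effect in Cajal-Retzius members differed from that in other classes, by edgeR's interaction test over the 4 CFC libraries, for the genes given here as differences in log2 fold change (members minus the other class). Under 6000 UMIs against Reln-high GABAergic nuclei they were 4.31 for Fndc1, 3.83 for Casz1, 3.49 for Aatf, 3.02 for Slc22a15 and 2.98 for Gas2 on the higher side. On the lower side they were -3.09 for Gpc5, -2.62 for Apoe, -2.37 for Kcnmb2 and -1.49 for Mmp16. With all members none of these 4 was called (-0.53, -2.21, -2.69 and -1.04, adjusted p = 0.889, 0.223, 0.0542 and 0.452), nor were Fndc1 (4.02), Slc22a15 (2.74) and Gas2 (2.69). Gpc5 stood at 454 and 85.6 class CPM in the Veh-CFC members. Kcnmb2, which fell in members, stood at 1226 and 1206 class CPM in vehicle GABAergic nuclei and at 2411 and 1700 in treated ones.

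Against dentate granule nuclei the differences under 6000 UMIs were 4.27 for Fndc1, 3.37 for Aatf, 3.20 for Abat, 3.16 for Eln and 3.02 for Gas2. The lower ones were -2.88 for Gpc5, -2.34 for Mmp16, -2.02 for the zinc finger gene Zfp536, -1.90 for the planar polarity gene Prickle2 and -1.86 for Syn1. With all members Gpc5 had -0.10 and Prickle2 0.071, neither called, and the other 8 remained called.

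With all members, the differences from GABAergic nuclei were 3.60 for Casz1, 3.44 for Grin2a, 3.17 for Aatf, 2.82 for Dlgap2 and 2.27 for Dlgap1. From granule nuclei they were 4.22 for Fndc1, 3.74 for the calcium release channel gene Ryr3, 3.28 for Aatf, 3.27 for Grin2a, 3.26 for Dok6, -1.66 for Mmp16 and -1.22 for Apoe. Under 6000 UMIs Grin2a was not called against GABAergic (0.96) or granule nuclei (0.59), nor were Dlgap2 (-0.39), Dlgap1 (-0.24), Ryr3 (0.92) and Dok6 (0.86). Ryr3 stood at 60.4 and 475 class CPM in the HDACi-CFC members, so replicate 2 was the high one. The 5 deep HDACi-CFC members held 88.0% of the Grin2a, 93.6% of the Dlgap2 and 89.5% of the Dlgap1 UMIs of that group.

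The drug effect in CFC differed from that in Context for Pde4b, a cAMP phosphodiesterase gene (3.34), and Nkain2 (2.24) with all members. Under 6000 UMIs it differed for Arhgap23 (3.27), Nkain2 (2.61) and the splicing factor gene Rbfox1 (-2.60). Nkain2 was called in both sets, whereas Pde4b was not called under 6000 UMIs (3.16, adjusted p = 0.971), nor Arhgap23 (3.85, adjusted p = 0.115) and Rbfox1 (-0.19, adjusted p = 0.989) with all members. Each rests on 1 library per Context group, 1 of them with conflicting labels.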

How the results depend on the processing

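Alternatives with the 6000-UMI limit, thinning to 1000 UMIs and the glial limit were chosen after seeing the data. For CFC with all members, 514 calls became 95 with DESeq2, 130 and 116 with the rule on counts thinned to 3000 and 1000 UMIs (fewer nuclei and genes tested), and 0 to 510 with 1 library left out. Under 6000 UMIs, 537 became 105 with DESeq2 and 252 to 315 with 1 library left out. The interaction with GABAergic nuclei (6 calls) gave 54 with no filter, 78 under 6000 UMIs and 7 to 153 with 1 library left out, and the 78 gave 39 with no filter and 18 to 66. That with granule nuclei (178) gave 112 with no filter and 38 to 178, and the 173 under 6000 UMIs gave 70 to 99. The exposure interaction (2) gave 5 with library-size scaling, 10 with no filter, 5 under 6000 UMIs and 0 to 24 with 1 library left out, and those 5 gave 1 with no filter and 2 to 8. The share of nuclei, in percent, became 0.606 (Veh-CFC replicate 1), 0.460 (library labelled Veh-Context) and 0.457 (HDACi-Context) with at least 4 factor UMIs. Thinned shares count only nuclei at least as deep as the thinning. Thinned to 3000 UMIs the share was 0.391 and 0.487 for Veh-CFC, 0.184 and 0.258 for HDACi-CFC, and 0.313 and 0.390 for Context. Thinned to 1000 UMIs it was 0.484 and 0.524 for Veh-CFC, 0.575 for HDACi-CFC replicate 2, and 0.245 and 0.316 for Context. For HDACi-CFC replicate 1 it stayed within the interval of the deposited counts, 0.855 to 1.57. With all members, the log2 fold change turned sign without members of 5 or more glial and vascular UMIs for Dab1 (-0.0039), Nsf (-0.098), Kcnd2 (-0.84), Grik2 (-0.18), Nlgn1 (-0.51) and Dlgap1 (-0.18). Without members of 6000 or more UMIs it did so for Kcnd2 (-0.93), Grik2 (-0.24), Nlgn1 (-0.93) and Dlgap1 (-0.026), for Cacna2d2 when thinned to 3000 UMIs (-0.0076), and for Unc5c without HDACi-CFC replicate 2 (-0.046, against up to 3.24 without another library). The cause was not tested. Replicate numbers did not pair the libraries (correlation of same-numbered deviations 0.0213 with all members and 0.0357 under 6000 UMIs), and the replicate block gave 563 and 502 calls. Without the filter on low counts the CFC split was 464 higher and 94 lower with all members and 293 and 80 under 6000 UMIs. Member depth limits the test to 2452 of 31053 genes.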
